A study of Mus musculus with 6 samples.

Results

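The tubulin genes of mouse lung epithelium were described across 6 sorted-cell RNA-seq libraries. The genes were taken by symbol from the deposited count tables and comprised 4 alpha tubulins (Tuba1a, Tuba1b, Tuba1c and Tuba4a), 5 beta tubulins (Tubb2a, Tubb2b, Tubb4b, Tubb5 and Tubb6) and 1 gamma tubulin (Tubg1), 10 of 48577 genes in all. The animals were Miwi2-tdTomato mice on C57BL/6, in which the fluorescent protein tdTomato reports Piwil4, the gene of the Piwi protein MIWI2. Lung cells lacking the leukocyte marker CD45 and carrying the epithelial marker EpCAM were sorted into a tdTomato-negative and a tdTomato-positive fraction, and both fractions came from each of 3 mice. Every library therefore shares the reporter strain, the tissue and the EpCAM gate, and the fractions differ in tdTomato fluorescence. The labels call both fractions multiciliated, but no gate for cilia, no age and no construction of the reporter allele are given in the sources used here. The RNA was amplified before library preparation.

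Alpha and beta tubulin pair into the dimer from which microtubules grow, and gamma tubulin starts that growth at centrosomes and at the basal bodies of cilia. Multiciliated airway cells need large amounts of both partners, because the axoneme of each motile cilium is a bundle of microtubules. Isotypes of a family differ mostly in the acidic tail at the carboxyl end of the protein, where enzymes add glutamate or glycine chains. Tubb4b is known as the beta isotype of motile cilia, and Tuba4a is the alpha isotype whose gene does not encode the final tyrosine.

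For the tail region, the last 75 coding bases, stop codon included, are shown for Tubb4b, the leading beta gene, and for the class II pair. Capitals mark bases that differ from Tubb4b.
Tubb4b: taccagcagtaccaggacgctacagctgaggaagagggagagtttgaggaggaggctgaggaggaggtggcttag
Tubb2a: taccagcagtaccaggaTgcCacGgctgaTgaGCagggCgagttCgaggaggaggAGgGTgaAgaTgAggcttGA
Tubb2b: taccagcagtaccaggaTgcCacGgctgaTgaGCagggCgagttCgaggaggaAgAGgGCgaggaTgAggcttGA
The stretches lie at chr2:25222308-25222382, chr13:34074468-34074542 and chr13:34127471-34127545, all on the minus strand of GRCm38 (GENCODE M21 annotation), each inside a coding exon. Tubb2a and Tubb2b each differ from Tubb4b at 17 of the 75 bases and from each other at 3.

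Similarity between the genes bears on how reads could be assigned. Of all 50-base stretches of the annotated transcript, 64.3% in Tuba1a, 82.2% in Tuba1b and 61.0% in Tuba1c also occur in the transcript of another gene elsewhere in the genome, mostly each other and several unnamed copies listed as Gm genes. The 3 genes are neighbours on chromosome 15 (98949837 to 98953703, 98931425 to 98934565, and 99029891 to 99038110). Their coding sequences are 97.1% to 98.3% identical. Of Tubb4b (chromosome 2, 25222160 to 25224702) 50.9% of the stretches recur, mainly in its processed copies Tubb4b-ps1 and Tubb4b-ps2, which held at most 4 and 1 reads in any library. Its coding sequence is 80.7% to 83.6% identical to those of the other beta genes, and none of its 50-base stretches recurs in another of the 10 genes. Tubb5 (0.115%), Tubb6 (0%) and Tuba4a (1.11%) are nearly free of such repeats, although 1379 bases of Tuba4a (chromosome 1, 75214228 to 75219865) overlap Stk16 on the other strand. Genes that overlap in position are left out of these percentages. Fam166a overlaps Tubb4b on the other strand (121 bases). Gm49450 overlaps Tuba1a on the same strand (473 bases). Tuba1b is overlapped by Gm49450 on the same and Gm41396 on the other strand (513 bases together). Neither Gm gene has a row in the deposited counts. The strand setting of the counting and the read length are not given in the sources used here. Reads aligned to several places were 8.26% to 12.03% of all counted rows and went to no gene. Counts of Tuba1a, Tuba1b and Tuba1c are therefore partial and may be split unevenly among them.

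**Figure D1:**
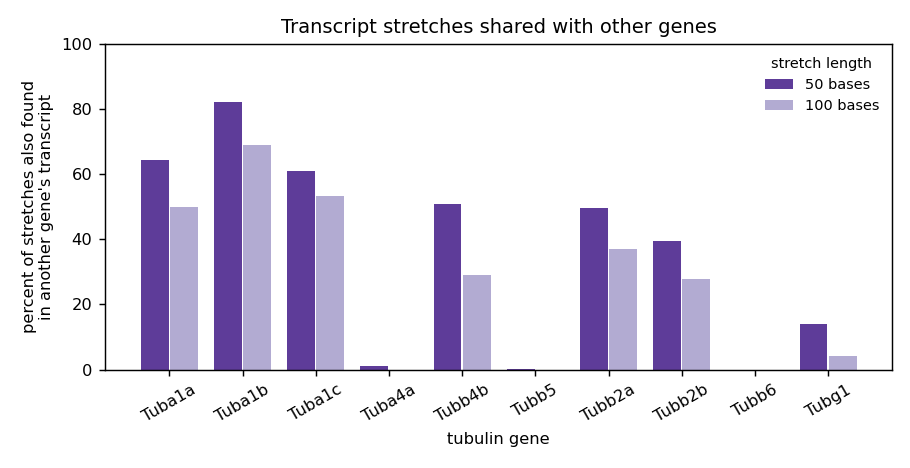
Bars give the percent of 50-base (dark) and 100-base (light) stretches of each tubulin transcript that also occur in another gene's transcript elsewhere in the GRCm38 annotation. Tuba1b is highest at 82.2% and 69.1%, while Tuba4a, Tubb5 and Tubb6 are at or near 0.

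The libraries held 5330584 to 6326395 reads in genes. Zero reads allow a level of up to 0.474 to 0.563 CPM (reads scaled to library size), that of 3 reads, which covers counting error only. This floor is by library size alone, whereas the CPM values below also used TMM factors, a scaling between libraries, unless stated otherwise. The tdTomato row had 0 reads in the negative libraries and 37, 16 and 18 in the positive libraries of mice 1, 2 and 3. Piwil4 averaged 39.9 ± 8.62 CPM without tdTomato and 103 ± 7.92 CPM with it (SD, n = 3 per fraction). These groups did not overlap, and the edgeR adjusted p was 0.0120, a call kept in 3 of 9 runs with a library or a mouse left out. In a principal component analysis, 37.05% of the variance lay along an axis on which the positive library of mouse 1 scored 66.0 and the others -31.8 to 8.54. Mitochondrially encoded genes took 31.7% to 43.6% of counts in negative and 19.5% to 23.8% in positive libraries. Multiciliated markers, 18 genes such as the axonemal dyneins, summed to 7427 to 7724 CPM in the negative and 7550 to 8299 CPM in the positive libraries, so transcripts of that cell type were abundant in both. Of these 18, Mcidas, a regulator of multiciliogenesis, was at 0 in some library. Alveolar type 2 markers, 10 genes of surfactant-making cells, summed to 6042 to 7380 CPM in the negative and 549 to 1062 CPM in the positive libraries, none of them at 0. Club cell markers, 8 genes of airway secretory cells, summed to 4857 to 8260 and 8588 to 21819 CPM, also with none at 0. In sorted bulk RNA, fewer cells of a type and less RNA per cell cannot be told apart.

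Tubulin RNA was dominated by 1 alpha and 1 beta gene in every library. Tuba1a and Tubb4b together held 75.8% to 81.2% of the reads of the 10 genes in the negative and 76.4% to 81.0% in the positive libraries. These shares fell to 70.1% to 75.3% and 68.8% to 73.2% with counts divided by the number of positions whose stretch is unique. That alternative was chosen after the data were seen. The levels per kilobase of exon that follow are not corrected for shared stretches. In the negative libraries, TMM-scaled, they were 127 ± 25.1 CPM for Tubb4b and 110 ± 15.2 CPM for Tuba1a (SD, n = 3), and the SD ranges overlapped. Tuba1b followed at 30.8 ± 3.04 and Tuba1c at 14.4 ± 4.23 CPM per kilobase (SD, n = 3), each below the gene before it by more than the spread. The other genes were far lower, from 5.31 ± 1.08 for Tubb5 and 3.77 ± 1.16 for Tubb2a to 2.39 ± 1.18 for Tubb6, 1.99 ± 0.145 for Tuba4a and 1.57 ± 0.338 for Tubg1 (SD, n = 3). Among these 5, the SD ranges of neighbours in the order overlapped. In the positive libraries Tuba1a was at 182 ± 17.3, Tubb4b at 149 ± 14.96, Tuba1b at 47.1 ± 6.10 and Tuba1c at 20.3 ± 8.65 CPM per kilobase (SD, n = 3). The SD ranges of the first pair nearly met, and the other 5 tested genes were at 2.04 to 3.80. By unique positions Tubb4b, Tuba1a, Tuba1b and Tuba1c kept the order of their means in each fraction, but Tuba1b held more of the total. Its mean share was 20.8% in negative and 22.4% in positive libraries, against 9.74% and 10.8% by read counts.

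None of the 9 tubulin genes with enough reads to test passed between the fractions in the edgeR quasi-likelihood fit (adjusted p under 0.05 over 13175 genes), which had no term for the mouse. That fit called 82 genes, 0.622% of those tested, and 1408 genes had an unadjusted p under 0.05. The labels pair the libraries by mouse, and a fit with the mouse as a block called 415 genes (3.15%), of which 179 were higher in the positive fraction (1.36%). Tuba1a was 1 of them and the only tubulin gene called. The groups did not overlap in TMM-scaled CPM for Tuba1a, Tuba1b and Tubg1, all higher in the positive libraries. Over all genes tested 17.3% had no overlap in either direction and 8.29% had none with the positive libraries higher. The 9 genes had a median log2 fold change of 0.48, against 0.03 over everything tested.

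**Figure D2:**
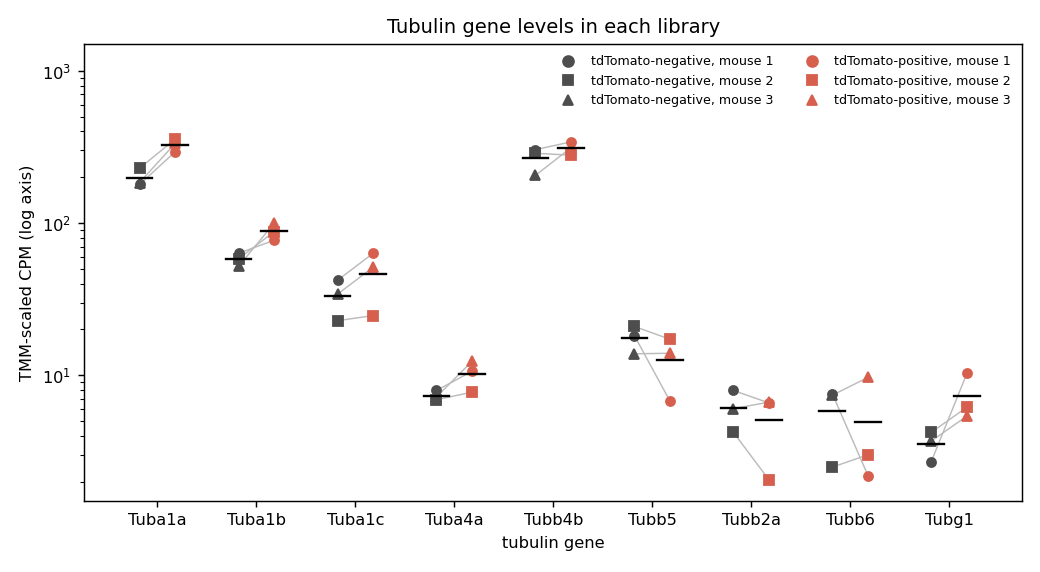
Points give the TMM-scaled CPM (log axis) of each tested tubulin gene in each library, grey for tdTomato-negative and red for tdTomato-positive, with symbols for mice 1, 2 and 3, thin lines joining the libraries of a mouse and bars at group means. All 3 positive libraries lie above all 3 negative ones for Tuba1a, Tuba1b and Tubg1, and the groups overlap for the other 6 genes.

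Among the alpha tubulins, Tuba1a was the most abundant. It was at 179, 229 and 185 CPM in negative libraries (mice 1, 2 and 3 in order, here and below) and at 294, 356 and 334 CPM in positive ones. The lowest positive library was above the highest negative one. Its log2 fold change, positive over negative, was 0.73 ± 0.165 (SE, 95% interval 0.37 to 1.09, edgeR adjusted p = 0.0926), higher in 3 of 3 mice by 0.71, 0.63 and 0.85. With the mouse as a block the change was 0.73 ± 0.138 (SE, edgeR adjusted p = 0.00532). The blocked call held without mouse 1 and without mouse 2 (edgeR adjusted p = 0.0109 and 0.00247) and was lost without mouse 3, where the log2 fold change was 0.67 (adjusted p = 0.317). DESeq2 also called the gene (adjusted p = 0.0214). Over the 9 alternative settings the log2 fold change was 0.66 to 1.00.

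Tuba1b, a broadly expressed alpha isotype, was at 63.2, 58.2 and 51.9 CPM in negative libraries and 77.2, 87.8 and 100.04 in positive ones. The groups did not overlap. The log2 fold change was 0.61 ± 0.185 (SE, 95% interval 0.21 to 1.02), with an edgeR adjusted p of 0.246 that did not pass, nor did the blocked value of 0.0891. Within mice 1, 2 and 3 the log2 ratio was 0.29, 0.59 and 0.95. Of the 50-base stretches of Tuba1a, 43.4% recur in Tuba1b, and the part of reads from these stretches in either count was not tested. Their read ratio, Tuba1a over Tuba1b, was 2.83, 3.94 and 3.56 in negative libraries and 3.81, 4.05 and 3.34 in positive ones, and the groups overlapped. This ratio is not corrected for the number of positions whose 50-base stretch is unique, 627 in Tuba1a and 301 in Tuba1b.

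Tuba1c, which lies beside them, was at 42.1, 22.9 and 34.1 CPM in negative libraries and 63.3, 24.7 and 51.3 in positive ones. Mouse 2 was lowest in both fractions and the groups overlapped, with a log2 fold change of 0.49 ± 0.342 (SE) and an edgeR adjusted p of 0.636. With the mouse as a block the change was 0.44 ± 0.212 (SE, edgeR adjusted p = 0.328). Tuba4a was at 7.95, 6.92 and 7.21 against 10.6, 7.75 and 12.4 CPM. The positive library of mouse 2 fell inside the negative range, and the log2 fold change was 0.48 ± 0.353 (SE) at an edgeR adjusted p of 0.662. Stk16, which overlaps Tuba4a, had 59, 88 and 63 reads in negative and 102, 95 and 111 in positive libraries, and the part of this overlap in the Tuba4a counts was not tested. All 4 alpha genes had positive estimates under every scaling tried, and the higher value in the positive library of every mouse. Of all 13175 genes tested, 2611 were higher in the positive library of every mouse. Estimates were above 0 for 52.7% of them in the main fit and for 73.75% with scaling by library size alone. Tuba1a, Tuba1b and Tuba1c share stretches, so the 4 genes are not independent observations.

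The beta tubulins did not all have positive estimates. Tubb4b, their most abundant member, was at 303, 287 and 206 CPM in negative libraries and 342, 279 and 313 in positive ones. The negative library of mouse 3 was lowest and the groups overlapped. The log2 fold change was 0.23 ± 0.182 (SE) at an edgeR adjusted p of 0.688, and its 95% interval of -0.17 to 0.63 includes both no difference and the estimate for Tuba1b. Within mice 1, 2 and 3 the log2 ratio was 0.17, -0.04 and 0.60.

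Tubb5, the class I beta tubulin of most dividing and non-dividing cells, was at 18.2, 20.9 and 13.8 CPM in negative libraries and 6.76, 17.2 and 14.0 in positive ones. Mouse 1 had the largest within-mouse difference and mouse 3 nearly none, and the groups overlapped, at a log2 fold change of -0.48 ± 0.370 (SE) and an edgeR adjusted p of 0.679. Tubb2a, a class II beta tubulin prominent in neurons, was at 7.95, 4.23 and 6.04 against 6.59, 2.06 and 6.67 CPM, a log2 fold change of -0.25 ± 0.520 (SE) and an edgeR adjusted p of 0.895. Its near copy Tubb2b had 2 reads in the negative library of mouse 3, 1 read in the positive library of mouse 1 and none in the others, so both groups were under the floor and no fold is given. Tubb6, the class V beta tubulin, was at 7.57, 2.50 and 7.41 against 2.20, 3.01 and 9.69 CPM, a log2 fold change of -0.23 ± 0.632 (SE) and an edgeR adjusted p of 0.920. Both Tubb2a and Tubb6 overlapped between the groups, and scaling by library size alone turned the estimate for Tubb6 to 0.01. Tubb2a rested on 13 to 42 reads per library, and its 95% interval of -1.39 to 0.89 also includes the estimate for Tuba1a.

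Tubg1 encodes the main gamma tubulin. It was at 2.72, 4.23 and 3.70 CPM in negative libraries and 10.3, 6.17 and 5.40 in positive ones, from 14 to 22 and 34 to 61 reads. The groups did not overlap and the positive library of mouse 1, which stood apart on the main axis of variance, was highest. The log2 fold change was 1.03 ± 0.456 (SE) at an edgeR adjusted p of 0.452. Without that library it was 0.70, and 0.52 without both libraries of mouse 1. Tubg2, the other gamma tubulin gene, had 0 to 9 reads in negative and 7 to 14 in positive libraries, and 13.9% of the 50-base stretches of Tubg1 recur in it.

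**Figure D3:**
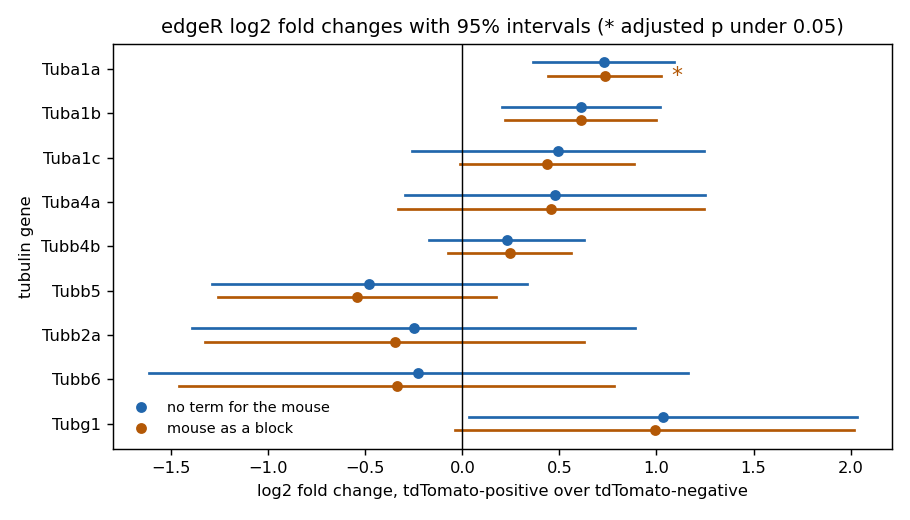
Points and lines give the edgeR log2 fold change of each tested tubulin gene, positive over negative, with its 95% interval, in blue without a term for the mouse and in orange with the mouse as a block. An asterisk marks an adjusted p under 0.05, which Tuba1a alone reached, with the block (0.00532).

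Summed over the 10 genes, tubulin RNA was at 632, 637 and 515 CPM in negative libraries and 813, 783 and 846 in positive ones. The groups did not overlap, and the ratio of means (594.7 ± 69.0 and 814.1 ± 31.2 CPM, SD, n = 3 each) was 1.37. The exact two-sided permutation test gave p = 0.1, its minimum for 3 against 3, and the exact sign-flip p over the mice was 0.25, the smallest for 3 pairs. Without TMM factors, which put the all-gene median log2 fold change at 0.29 instead of 0.03, the ratio was 1.64. The 4 alpha genes made up most of the difference, at 293, 317 and 278 against 445, 476 and 498 CPM, a ratio of 1.60 with no overlap. The 5 beta genes summed to 337, 315 and 233 against 357, 301 and 343 CPM, a ratio of 1.13 with overlap, and were lower in the positive library of mouse 2.

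The alpha genes took a larger share of the alpha and beta reads in the positive fraction. This share was 46.5%, 50.2% and 54.3% in negative libraries and 55.5%, 61.2% and 59.2% in positive ones. Means were 50.3% ± 3.95 and 58.6% ± 2.91 (SD, n = 3 each), a difference of 8.31 points, higher in 3 of 3 mice (exact permutation p = 0.1, the smallest possible). By read counts divided by exon length the difference was 8.14 points and the groups stayed apart. By counts divided by the number of positions whose 50-base stretch is unique, an alternative chosen after the data were seen, it was 7.17 points. The groups then overlapped, since the negative library of mouse 3 was at 64.1% and the positive library of mouse 1 at 63.8%. The number of unique positions depends on the stretch length, for Tuba1b 301 at 50 bases and 508 at 100. The share by 100-base stretches was not tested.

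Within the total, Tuba1a held 28.3%, 36.0% and 35.9% of tubulin reads in negative libraries and 36.2%, 45.4% and 39.5% in positive ones. These groups lay side by side (36.0% and 36.2%), and they overlapped when counts were divided by exon length. Tubb4b held 48.0%, 45.1% and 39.9% against 42.0%, 35.6% and 37.0%, with overlap. Tubb5 held 2.88%, 3.29% and 2.69% against 0.831%, 2.20% and 1.65%, with no overlap by counts, by exon length or by unique positions. As a share of beta reads alone, Tubb5 was at 5.41%, 6.65% and 5.93% against 1.89%, 5.72% and 4.07%, and the groups overlapped. The shares of Tuba1b (9.14% to 10.1% and 9.50% to 11.8%), Tuba1c (3.59% to 6.66% and 3.15% to 7.79%) and Tuba4a (1.09% to 1.40% and 0.990% to 1.46%) overlapped. Shares of 1 total are tied to each other, so a lower share of Tubb4b or Tubb5 does not show a lower level.

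**Figure D4:**
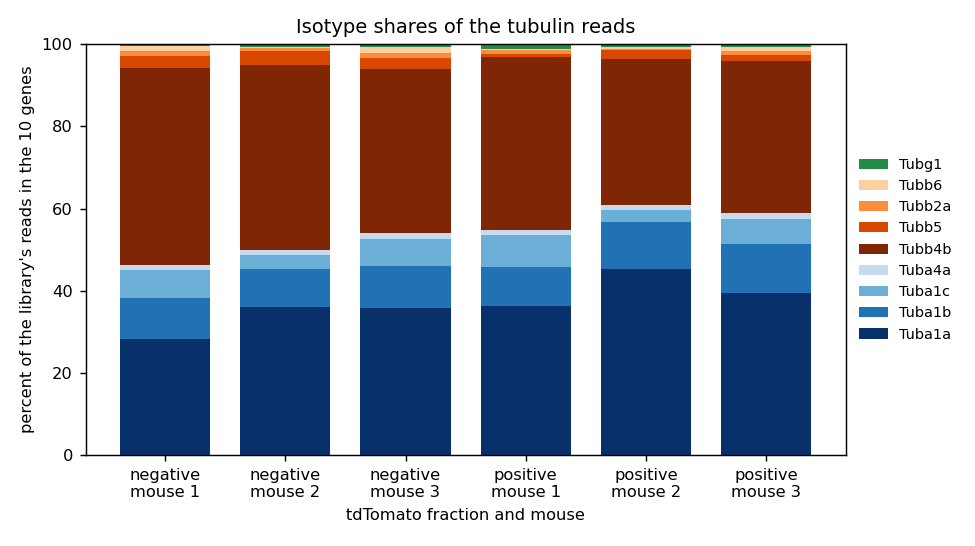
Each stacked bar gives, for 1 library, the percent of its reads in the 10 tubulin genes held by each isotype, alpha genes in blue, beta genes in orange and brown, and Tubg1 in green; Tubb2b, with 3 reads in all, is too small to draw. The blue part is taller in the positive library of each mouse, and Tuba1a with Tubb4b fill 75.8% to 81.2% of every bar.

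Within families the order of isotypes was much the same in both fractions. Tuba1a held 61.3% to 72.3% of alpha reads in the negative and 66.1% to 74.7% in the positive libraries, and Tubb4b held 88.1% to 91.2% and 91.2% to 95.6% of beta reads. Both ranges overlapped between the fractions. The ratio of Tuba1a to Tubb4b reads was 0.591, 0.798 and 0.898 in negative libraries and 0.862, 1.27 and 1.07 in positive ones. It was higher in the positive library of 3 of 3 mice, but the groups overlapped.

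Set against the cell type markers, the tubulin values moved as follows. The 10 genes over the summed multiciliated markers gave 0.0852, 0.0846 and 0.0667 in negative libraries and 0.108, 0.0944 and 0.105 in positive ones, a ratio of means of 1.299 with no overlap. For Tuba1a over the same sum the ratio was 1.57, again with no overlap, and for Tubb4b it was 1.11 with overlap. Against Foxj1 alone, the transcription factor of motile ciliogenesis, the direction was the opposite. Foxj1 had the largest ratio of means among the 18 multiciliated markers (2.09). The next, Cfap126 (1.64), was below that of Tuba1a (1.66), and Ccdc39 (0.749) was lower in the positive library of 3 of 3 mice. Foxj1 was at 484, 138 and 116 CPM in negative libraries and 870, 402 and 270 in positive ones, and it passed with the mouse as a block (edgeR adjusted p = 0.000129, without mouse 3 0.0777) but not without the block (0.665). Tuba1a over Foxj1 was lower in the positive library of 3 of 3 mice, at 0.370, 1.67 and 1.59 against 0.338, 0.885 and 1.24, and so were Tuba1b and Tubb4b over Foxj1. These ratios were added after the data were seen. Of the 10 alveolar type 2 markers, 6 were called lower in the edgeR fit, and all 8 club markers had positive estimates, none called without the block and 6 with it. Over all 13175 genes tested, 76 were called lower without the block. Estimates were above 0 for 52.7% of them, and 1.36% were called higher with the block. The part of these other cells in the tubulin values was not tested.

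**Figure D5:**
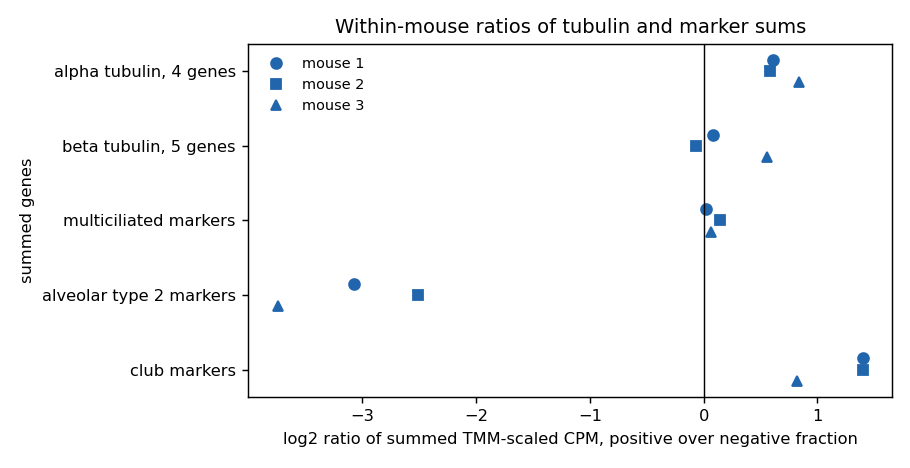
Points give the log2 ratio, positive over negative library of the same mouse, of summed TMM-scaled CPM for the alpha tubulins, the beta tubulins and the 3 marker lists, with symbols for mice 1, 2 and 3. Alpha tubulin lies right of 0 in every mouse (0.61, 0.58 and 0.84), beta tubulin on both sides of it (0.08, -0.06 and 0.56), alveolar type 2 markers far to the left and club markers to the right.

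Tubulin genes outside the 10 were scarce. The class III beta tubulin of neurons, Tubb3, and the testis-type alpha genes Tuba3a and Tuba3b were among 7 of the 10 further genes with no read in some library, and Tubb1, the beta tubulin of platelets, had none in any library. All 10 together gave 11.5 to 12.2 CPM in the negative and 8.11 to 10.8 CPM in the positive libraries. Tubd1, a delta tubulin of centrioles, was the 1 gene among them with enough reads to test and was at 4.90 ± 0.652 and 5.00 ± 0.749 CPM (SD, n = 3 each; log2 fold change 0.03 ± 0.425, SE, edgeR adjusted p = 0.989).

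No gene of the 2 lists around tubulin folding was called, and a place in these lists does not show that a gene folds tubulin. None of the 8 folding cofactors and proteins named after them and none of the 14 subunits of the CCT chaperonin and prefoldin was called, with or without the block, at median log2 fold changes of 0.26 and -0.06 against 0.03 over all genes. Tbcel, a cofactor E-like protein, was at 86.7, 97.4 and 105 CPM in negative libraries and 129, 139 and 131 in positive ones. These groups did not overlap, at a log2 fold change of 0.46 ± 0.161 (SE) and an edgeR adjusted p of 0.330. Arl2, a small GTPase that works with the cofactors, was at 1.94 to 2.50 against 2.53 to 12.3 CPM, with 1 positive library far above the others. Tbccd1 was at 8.19 to 11.9 against 3.72 to 8.86 CPM. Of the chaperonin and prefoldin genes, Cct8 was at 68.8 to 87.4 against 54.2 to 64.1 CPM (log2 fold change -0.32 ± 0.187, SE, edgeR adjusted p = 0.580). Vbp1 was at 14.6 to 18.4 against 6.80 to 18.4 CPM and Pfdn5 at 15.8 to 35.7 against 17.4 to 49.0 CPM.

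None of the 10 tested genes of the gamma-tubulin ring complex and its recruiters was called either, at a median of 0.14. Tubgcp3, a core ring subunit, was at 119.7, 107 and 119 CPM in negative libraries and 141, 120.2 and 138 in positive ones. The groups did not overlap, and the log2 fold change was 0.20 ± 0.159 (SE) at an edgeR adjusted p of 0.684. Cdk5rap2, which recruits the ring to centrosomes, was at 10.1 to 14.0 against 12.4 to 21.2 CPM. Akap9, a large scaffold of the centrosome and Golgi, was at 1623 to 1917 against 1186 to 1911 CPM.

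Among enzymes that modify the tubulin tails, 1 gene differed. Ttll7, a glutamylase that acts on beta tubulin, was at 19.6, 25.7 and 24.8 CPM in negative libraries and 6.08, 9.97 and 6.35 in positive ones. Every negative library was above every positive one by more than the spread within either group. Ttll7 fell by 1.64 ± 0.318 on the log2 scale (SE), at an edgeR adjusted p of 0.0475, and was lower in 3 of 3 mice, with an adjusted p of 0.00551 under the block and 0.285 under the block without mouse 3. Ttll7 was the only call among 14 tested glutamylases, glycylases and the tyrosine ligase, whose median was 0.22. It was near the threshold: the call was lost with scaling by library size alone (adjusted p = 0.0901) or the stricter filter (0.0546). Of 9 runs with a library or a mouse left out, at log2 fold changes of -1.90 to -1.50, the call was kept in 1, which lacked the positive library of mouse 2 (edgeR adjusted p = 0.0393). The alveolar type 2 marker sum moved with it, at 6042 to 7380 against 549 to 1062 CPM, and its part in the Ttll7 values was not tested.

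Of the list's other enzymes, the next by p were Ttll12 and Ttll1. Ttll12 was at 9.75 to 11.7 against 12.2 to 22.6 CPM, without overlap and without a call (edgeR adjusted p = 0.553), and Ttll1, the catalytic part of a glutamylase needed in airway cilia, was at 21.4 to 26.8 against 21.1 to 46.2 CPM. None of the 5 tested deglutamylases was called. Agbl3 was at 96.8 to 121 against 67.4 to 92.7 CPM with no overlap (log2 fold change -0.36 ± 0.187, SE, edgeR adjusted p = 0.534). Agtpbp1 was at 82.8 to 95.3 against 63.0 to 90.2 CPM and Agbl4 at 26.1 to 41.3 against 22.2 to 34.6 CPM. The 3 tested genes of tubulin acetylation and detyrosination were not called. Atat1, the alpha tubulin acetyltransferase, was at 15.9 to 19.9 against 15.6 to 27.4 CPM, and the deacetylases Sirt2 and Hdac6 were at 20.7 to 35.3 against 27.4 to 51.7 and at 2.72 to 7.30 against 2.53 to 12.2 CPM.

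Of 24 tested genes of microtubule-binding and severing proteins, none was called in the main fit. With the block 2 were called, Mapre3 and Tppp3, both higher, and Mapre3 was also called in the unblocked run with no filter. Mapre3, which encodes the plus-end protein EB3, was at 112, 91.0 and 85.0 CPM in negative libraries and 161, 187 and 121 in positive ones. The groups did not overlap, and the log2 fold change was 0.70 ± 0.200 (SE), with an edgeR adjusted p of 0.211 and, under the block, 0.0288. Tppp3, a tubulin polymerization-promoting protein, was at 433, 138 and 184 against 687, 372 and 364 CPM. Mouse 1 was highest in both fractions, so the groups overlapped while all 3 mice were higher in the positive fraction (edgeR adjusted p = 0.554, with the block 0.000729). Both blocked calls were lost without mouse 3 (adjusted p = 0.319 and 0.141), and that of Mapre3 also without mouse 2 (adjusted p = 0.116). Tppp3 was named after its values were seen. Camsap3, a minus-end protein, was at 27.5 to 37.2 against 39.2 to 50.5 CPM without overlap (edgeR adjusted p = 0.473), and Map1a was at 117 to 124 against 115 to 213 CPM. The list's median was 0.16.

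Genes whose pattern over the 6 libraries lay nearest to the leading alpha and beta gene were found by the root mean square difference of centred log2 CPM among 8241 candidates. For Tuba1a these were Slc6a20b, an amino acid transporter family gene, at a distance of 0.0521, Prkcsh, a glucosidase II subunit, at 0.0721, and Tmem38a, a cation channel gene, at 0.0852. For Tubb4b they were Rangap1, the Ran GTPase activator, at 0.0476, Carkd at 0.0746 and Taf1a at 0.0766. Tuba1a itself lay at 0.174 from Tuba1b and at 0.344 from Tubb4b. With so many candidates over 6 libraries, some lie close to any pattern.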

How the data were processed

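RNA-seq libraries from 3 tdTomato-negative and 3 tdTomato-positive fractions were used. The authors deposited raw read counts per gene symbol, 1 table per library. Per the submitters' processing notes, the builds were GRCm38.p4 and mm10, and the tools included STAR 2.4.2a, cutadapt 1.7.1, HTSeq, FastQC and DESeq2. Counting options were not given in the sources used here. Rows for unassigned reads were left out of library sizes (no gene, 41.0% to 49.4% of all rows, ambiguous, 1.31% to 1.99%). CPM values used TMM factors. Two-sided tests came from the quasi-likelihood fit of edgeR 4.0.16 (R 4.3.3) after filterByExpr (count minimum 10), with Benjamini-Hochberg adjusted p-values over all genes tested and a threshold of 0.05. Each value not from that fit was tested by exact permutation or described.

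The labels give 1 mouse for both libraries of a number, so the numbers pair them. Across genes, deviations from the group means correlated at 0.281, 0.257 and 0.354 within mice 1, 2 and 3. The main fit had no mouse term. Alternatives were the replicate block, other scaling factors, other filters, DESeq2 1.42.0, limma-voom (limma 3.58.1), no mitochondrial genes, other denominators for shares, and leaving out each library or mouse. The block without each mouse, the unique-position shares and the ratios to multiciliated markers were added after the data were seen. The fits were run on simulated counts with a single fixed dispersion and no mouse effect, which cannot check how the block handles differences between mice. Tubulin genes and lists were chosen with earlier results of these data known. Named were each of the 10 tubulin genes described, up to 3 genes with the smallest p and every call in each list, the 3 genes nearest to the leading alpha and beta gene, and the sort checks. Positions, lengths and sequences come from GENCODE M21 on GRCm38, and protein sequences were not used here.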

Additional observations from a re-analysis of the deposited data

How the results depend on the processing

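The number of genes called, 82 (6 higher and 76 lower), was 413 without a filter, 247 with DESeq2 and 415 with the replicate block. With scaling by library size alone 22 of 76 called genes were higher and 54 lower. It was 34 to 113 when single libraries were left out and 22, 30 and 23 without mouse 1, 2 and 3. The block without mouse 1, 2 and 3 gave 633, 380 and 59. No tubulin gene was called in the main fit, and 1 was, Tuba1a, with scaling by library size alone, no filter, DESeq2, the block, or the block without mouse 2. The block without mouse 1 called 2, Tuba1a and Tuba1b, and without mouse 3 it called none. Tuba1a was not called in any of 9 runs without the block that left out a library or mouse (edgeR adjusted p = 0.0679 to 0.618), at log2 fold changes of 0.66 to 0.85. Signs turned for 5 genes, none of them called. Tubb6 was at 0.0096 with scaling by library size, 0.34 without mouse 1, 0.32 with the block without mouse 1, and -1.15 to 0.13 without single libraries. Tubb2a was at -0.49 to 0.13 without single libraries. Tubd1 was at -0.037 with upper quartile factors, -0.084 without mouse 3, -0.079 with the block without mouse 3, and -0.077 to 0.14 without single libraries. Pfdn5 was at -0.044 with the block without mouse 3, and Agtpbp1 at 0.031 with scaling by library size. The cause of these turns was not tested. For the summed level and the alpha share the direction held in each alternative run. Depth limits Tubb2a, Tubb2b, Tubb6 and Tubg1 most.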
